A study of Danio rerio with 4 samples.

Results

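The genes described here are those of the lysosomal proteases, of the proton pump that acidifies the lysosome, and of the LAMP membrane proteins, as measured in sorted zebrafish endothelial cells. They were found by symbol, as cathepsins, legumain, V-ATPase subunits, ATP6AP proteins and LAMP proteins, and make up 51 of the 31951 genes in the table. The 51 were 19 proteases, 22 pump subunits, 5 accessory proteins of the pump and 5 LAMP proteins, and every symbol that matched named a gene of these families. The cells came from fish carrying kdrl:mcherry, a red reporter under the endothelial kdrl promoter, which was used to sort endothelial cells from dissociated fish. Fish carrying kdrl:cxcr1 as well, called the receptor line here, in which the same promoter drives the chemokine receptor gene cxcr1, were compared with fish carrying kdrl:mcherry alone, called wild-type, or controls, here. Where values of the receptor line and of controls are given, clutch 1 comes first and clutch 2 second. Each of 2 independent clutches gave 1 library per genotype, so there were 4 libraries and 2 per group. Neither the age of the fish nor the number pooled per library is stated by the labels.

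Lysosomes break down what a cell takes up by endocytosis and autophagy, and in zebrafish the venous and sinusoidal endothelium is known for clearing material from the blood in this way. Cathepsins are the main lysosomal proteases. Most are cysteine proteases, while cathepsin D is an aspartic protease and cathepsin A a serine carboxypeptidase. They work in acid, which the V-ATPase supplies: its V1 sector splits ATP in the cytosol and turns a rotor, and its V0 sector in the membrane carries the protons. LAMP proteins line the inner face of the lysosomal membrane.

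The values are FPKM, fragments divided by transcript length and by the mapped total of each library, so levels of different genes can be set side by side. Their sum per library was 986557 to 1280969, the read depth behind them is unknown, and no counting error can be given. The 2 clutch 1 libraries listed 31.9% of all genes at 0 and the clutch 2 libraries 42% and 43.5%. Endothelial markers were present in every library, with kdrl at 128 to 274 FPKM and cdh5 at 92.5 to 178 FPKM. Markers of other cells were also high. The 10 endothelial marker genes summed to 559 to 937 FPKM, while 6 neutrophil markers summed to 854 to 1710 FPKM, above the endothelial sum in every library, 10 epidermal markers to 939 to 1310 FPKM and 8 red cell markers to 1450 to 6530 FPKM. The endothelial list had 16 entries, of which only these 10 rows matched. Of the neutrophil markers, lyz read 310 to 703 FPKM and npsn 132 to 583 FPKM. Most of the red cell sum was 1 gene, hbae3, at 1350 to 6370 FPKM, and krt8 and krt18a.1 gave much of the epidermal sum. Sums over such lists do not give shares of cells. The receptor transcript did not separate the genotypes: cxcr1 (ENSDARG00000052088) was at 12.8 and 0 FPKM in the receptor line and at 8.14 and 0 FPKM in controls (log2 change 0.30, SE 1.59, limma adjusted p = 0.981). A further row, CXCR1 (ENSDARG00000054975), read 0 and 8.21 FPKM against 3.89 and 0 FPKM. Every direction given here is therefore between libraries as labelled. In RNA from bulk sorted cells, fewer cells of a type and less RNA per cell cannot be told apart.

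Several proteases were among the more abundant transcripts of these libraries, while others were low or listed at 0. Testing required 2 or more libraries with an FPKM of 1 or above, which 45 members and 17723 genes in all met. The 15 proteases that met it had a median of 28.1 FPKM, the 21 pump subunits a median of 18.2 FPKM, and all tested genes a median of 7.54 FPKM. These were 15 of 19 proteases and 21 of 22 pump subunits. With no filter the median protease minus the median pump subunit was 0.00 log2 units as a mean of the libraries. The cathepsin L gene ctsla was the highest member, at 332 and 616 FPKM in the receptor line and at 295 and 396 FPKM in controls, which put its mean at percentile 98.8 of the tested genes. After it came LGMN, the gene of legumain, which cuts after asparagine and matures cathepsins. LGMN read 130 and 181 FPKM in the receptor line and 103 and 134 FPKM in controls. For both genes the clutch 2 library stood above the clutch 1 library of the same genotype, and the genotypes overlapped. The cathepsin S gene ctss2.1 (66.4 to 146 FPKM) and the cathepsin B gene CTSB (69 to 156 FPKM) followed. Together these 4 genes made up 63.2% to 85.4% of the summed FPKM of all 19 proteases, and ctsla alone 34.3% to 47.8%.

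**Figure D1:**
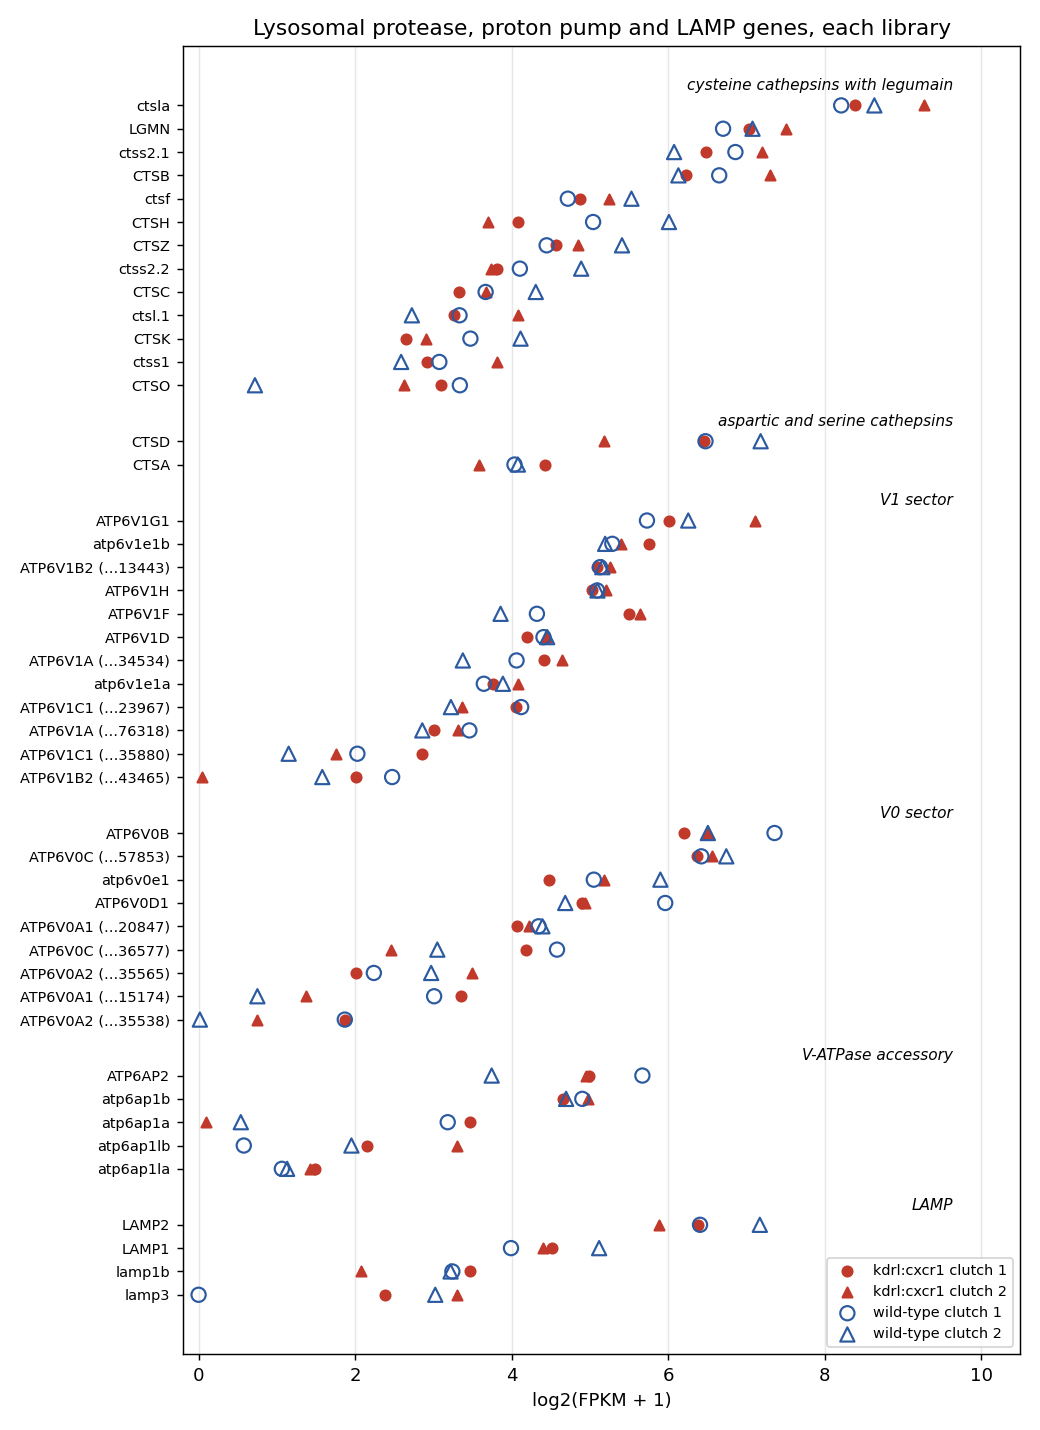
Level of each tested member, as log2(FPKM + 1), in the 4 libraries, grouped by role and ordered by mean within a role; red filled symbols are kdrl:cxcr1, blue open symbols wild-type, circles clutch 1 and triangles clutch 2, and rows that share a symbol carry the last digits of their Ensembl identifier. ctsla lies farthest to the right at 295 to 616 FPKM, and several low pump rows have both triangles left of both circles.

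Summed over their genes, proteases exceeded pump subunits in all 4 libraries. In the receptor line the sums were 848.8 against 559.2 FPKM in clutch 1 and 1287 against 663.6 FPKM in clutch 2. In controls they were 857.8 against 654.9 FPKM in clutch 1 and 1052 against 567.8 FPKM in clutch 2. The ratio of proteases to pump was thus 1.52 and 1.94 in the receptor line and 1.31 and 1.85 in controls, higher in both clutch 2 libraries and overlapping between genotypes. In both clutch 1 libraries ctsla alone, at 332 FPKM in the receptor line and 295 FPKM in controls, was larger than the distance between the sums. In clutch 2 it was not. The median genes read otherwise than the sums. The log2 level of the median protease minus that of the median pump subunit was 0.23 and -0.35 in the receptor line and 0.10 and 1.53 in controls, with no steady sign. Within the pump the V1 sum was 308 and 381 FPKM in the receptor line and 258 and 254 FPKM in controls. The V0 sum was 252 and 283 FPKM against 397 and 314 FPKM. The genotypes did not overlap in either sum, V1 being higher and V0 lower in kdrl:cxcr1. The median log2 change over tested V1 subunits was 0.09, beside 0.16 over all tested genes, with 5 of 12 above that median and 7 below. Over V0 subunits it was -0.22, with 2 of 9 above and 7 below. In clutch 2, ATP6V1G1 read 137 FPKM in the receptor line against 75.4 FPKM, and ATP6V1F 48.7 against 13.5 FPKM. By gene, 3 of 12 tested V1 subunits were higher without overlap, and 2 of 9 V0 subunits were lower. The shares over all tested genes were 26% higher and 13.6% lower. The V0 count includes ATP6V0B, which read 89.9 FPKM in both clutch 2 libraries, so its place there rests on a difference below the digits shown. The V0 sum was highest in wild-type clutch 1, where ATP6V0B read 163 FPKM and ATP6V0D1 61.3 FPKM. After median-of-ratios scaling of the libraries the V1 sums were 279 and 341 against 268 and 273, and the V0 sums 228 and 253 against 414 and 337, again without overlap. The nearest V1 sums of the genotypes were then close, 279 and 273.

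**Figure D2:**
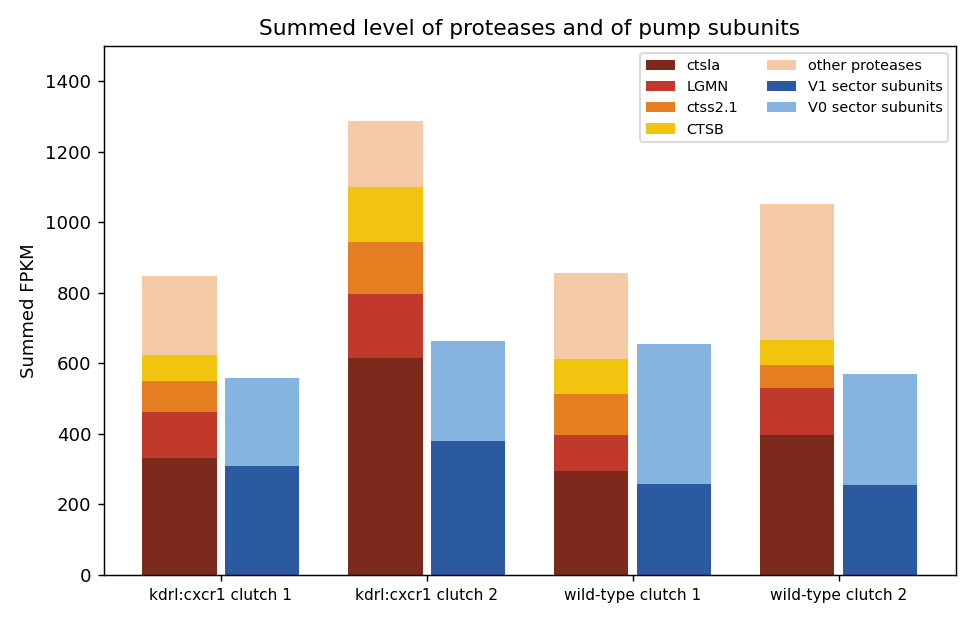
Summed FPKM of the 19 protease genes (left bar of each pair, split into the 4 most abundant genes and the rest) and of the 22 pump subunit genes (right bar, split into V1 and V0 sectors) in each of the 4 libraries; bars start at 0 and have no error since each is 1 library. The left bar is taller in every library, from 848.8 to 1287 FPKM against 559.2 to 663.6 FPKM.

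The genotype comparison asked whether the receptor line differed in these genes. Of the 45 tested members 0 passed limma's test at an adjusted p of 0.05, where 0.0113% of all tested genes did (2 of 17723). At an unadjusted p under 0.05 there were 2 members, CTSH and ATP6V1F, where 6.8% of all tested genes stood under that limit. The median log2 change was -0.05 over the tested proteases and 0.03 over the tested pump subunits, beside 0.16 over all tested genes. Relative to that median gene, 7 of 15 proteases lay above and 8 below, and 7 of 21 pump subunits lay above and 14 below.

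Among the cysteine cathepsins, CTSH had the smallest p. It encodes cathepsin H, which also works as an aminopeptidase. CTSH read 15.9 and 12 FPKM in the receptor line and 31.9 and 63.4 FPKM in controls. Both kdrl:cxcr1 libraries lay below both wild-type libraries, with a log2 change of -1.63 (SE 0.47) that did not pass (limma adjusted p = 0.699; leaving out 1 library gave -2.12 to -1.15). CTSK, the gene of a protease known in mammals for cutting collagen, read 5.3 and 6.52 FPKM in the receptor line and 10.1 and 16.3 FPKM in controls. Its groups likewise did not overlap (log2 change -1.01, SE 0.50, adjusted p = 0.699). The cathepsin S gene ctss2.2 read 13.1 and 12.3 FPKM against 16.2 and 28.6 FPKM, again without overlap (log2 change -0.72, SE 0.45, adjusted p = 0.73; leaving out 1 library gave -1.11 to -0.32, the smallest without the clutch 2 control). The abundant ctsla had a log2 change of 0.40 (SE 0.42, adjusted p = 0.838), which was -0.04 without kdrl:cxcr1 clutch 2.

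Of the other catalytic classes, the aspartic protease gene CTSD read 86.8 and 35.3 FPKM in the receptor line and 88 and 144 FPKM in controls. Its distance lay in clutch 2: the log2 ratio of kdrl:cxcr1 to wild-type was -0.02 in clutch 1 and -2.00 in clutch 2, and the fold change over both did not pass (-1.01, SE 0.53, adjusted p = 0.7; leaving out 1 library gave -1.65 to -0.37, the smallest without the receptor line's clutch 2 library). CTSA, whose product is also known to protect lysosomal neuraminidase and beta-galactosidase, read 20.5 and 11 FPKM against 15.4 and 15.9 FPKM. The genotypes overlapped (log2 change -0.05, SE 0.46, adjusted p = 0.989; 0.37 without kdrl:cxcr1 clutch 2).

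In all, 4 tested proteases (CTSD, CTSH, CTSK and ctss2.2) had both kdrl:cxcr1 libraries below both wild-type libraries, and 0 had the opposite. The place of CTSD in this count rests on a small distance in clutch 1, 86.8 against 88 FPKM. Over all tested genes the shares were 13.6% below and 26% above.

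Proteases divided in clutch 2 more than in clutch 1. In clutch 1 the log2 ratio of kdrl:cxcr1 to wild-type stayed between -1 and 1 for all 15 tested proteases. In clutch 2 it was above 1 for 5 and below -1 for 4. Those shares of all tested genes were 11.4% above and 7.59% below in clutch 1, and 24% above and 17.5% below in clutch 2, so clutch 2 libraries stood farther apart in general. The 5 above were CTSB, ctsl.1, CTSO, ctss1 and ctss2.1, with ratios of 1.17, 1.35, 1.91, 1.22 and 1.12. All 5 had negative ratios in clutch 1, from -0.43 to -0.07. The 4 below were CTSD (-2.00), CTSH (-2.31), CTSK (-1.20) and ctss2.2 (-1.15), negative in clutch 1 as well. Both sets include a cathepsin S gene: in clutch 2, ctss2.1 read 146 FPKM in the receptor line and 66.4 FPKM in controls, where ctss2.2 read 12.3 and 28.6 FPKM. In the RefSeq annotation of assembly GRCz12tu the genes ctsk, ctss2.1 and ctss2.2 follow each other with 0 coding genes between them. Each ratio within a clutch compares 1 library with 1 library and has no replicate check.

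**Figure D3:**
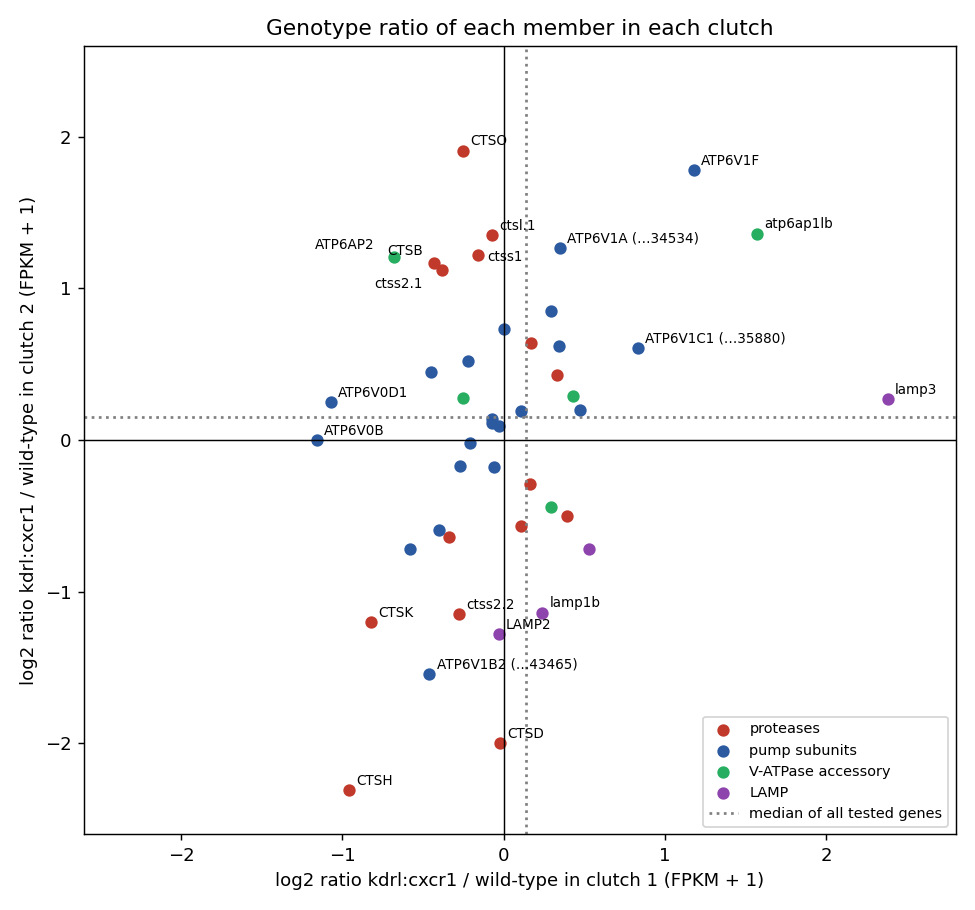
Log2 ratio of kdrl:cxcr1 to wild-type (FPKM + 1) of each tested member in clutch 1 (horizontal axis) and clutch 2 (vertical axis), coloured by class; dotted lines mark the medians of all tested genes, 0.14 and 0.15. Red points, the proteases, spread from -2.31 to 1.91 up the vertical axis while staying between -1 and 1 across; ATP6V1F and atp6ap1lb lie above 1 on both axes.

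Markers of several other cell types also had different genotype ratios in clutch 1 and clutch 2. Of the macrophage markers 20 rows matched and 15 were tested, with a median log2 ratio of -0.18 in clutch 1 and 1.45 in clutch 2. Their summed FPKM was 274 and 590 in the receptor line and 244 and 323 in controls. Single markers went both ways. c1qb read 6.77 and 14.8 FPKM in the receptor line and 7.81 and 0 FPKM in controls, while c1qc was listed at 0 in both libraries of the receptor line and read 1.84 and 10.4 FPKM in controls. In the clutch 2 control csf1rb read 109 FPKM and marco 33.4 FPKM, and the 3 MPEG1 rows read 31, 0.865 and 0 FPKM. The 6 neutrophil markers had medians of 0.08 in clutch 1 and 0.87 in clutch 2. Genotypes did not overlap in 1 of them, npsn, at 572 and 583 FPKM against 132 and 292 FPKM. MMP9 read 93.7 and 67.5 FPKM against 152 and 54.5 FPKM, and mmp13a 115 and 121 FPKM against 150 and 54.9 FPKM. Epidermal markers, all 10 matched rows tested, had a median log2 ratio of -0.25 in clutch 1 and -2.07 in clutch 2. Their summed FPKM was 1050 and 939 in the receptor line and 1250 and 1310 in controls, and cldne was listed at 0 in kdrl:cxcr1 clutch 2. Much of that sum was krt8 (386 and 503 against 295 and 496 FPKM) and krt18a.1 (224 and 346 against 338 and 229 FPKM). krt4 read 240 and 45.6 FPKM against 343 and 379 FPKM. Of the 10 rows, 7 were lower in the receptor line in both clutches and 1 was higher in both. The 7 tested of 11 liver, pancreas and yolk rows had medians of -0.37 and -2.49, with 0 of 7 above the median gene over both clutches. Their summed FPKM was 108 and 74 against 179 and 155. The 8 red cell markers had similar medians in both clutches, 1.02 and 1.11, with 7 of 8 above the median gene. Their summed FPKM was 6530 and 1450 against 3070 and 1610, so in clutch 2 it was lower in the receptor line. Most of each sum was hbae3, at 6370 and 1350 FPKM against 3000 and 1580 FPKM. gata1a was lower in the receptor line in each clutch, at 3.18 and 6.34 FPKM against 3.61 and 7.39 FPKM. The 4 tested genes of venous and sinusoidal scavenger endothelium had medians of 0.07 and -0.29. The part of these cells in the protease values was not tested.

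In the V1 sector, ATP6V1F had the smallest genotype p of all members. It encodes subunit F of the rotor that joins the V1 and V0 sectors. ATP6V1F read 44.3 and 48.7 FPKM in the receptor line and 19 and 13.5 FPKM in controls. The groups stood apart and the log2 ratio was 1.18 in clutch 1 and 1.78 in clutch 2. The fold change of 1.48 (SE 0.38) did not pass over all genes (limma adjusted p = 0.699) and was 1.24 to 1.72 with 1 library left out. The row of the catalytic A subunit ATP6V1A ENSDARG00000034534 read 20.3 and 24 FPKM against 15.7 and 9.38 FPKM (log2 change 0.81, SE 0.44, adjusted p = 0.708; leaving out 1 library gave 0.47 to 1.15). ATP6V1G1, a stalk subunit and the most abundant of the sector, read 63.6 and 137 FPKM against 52 and 75.4 FPKM, and its genotypes overlapped (log2 change 0.57, SE 0.47, adjusted p = 0.783; leaving out 1 library gave 0.02 to 1.12, the lowest without the receptor line's clutch 2 library).

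Some other V1 subunits held almost the same level in every library, while 5 of the 12 tested V1 rows spanned over 1 log2 unit. Of all tested genes 69.1% did. The regulatory subunit gene ATP6V1H read 31.6 and 35.9 FPKM in the receptor line and 33.1 and 33.2 FPKM in controls. The B subunit row ATP6V1B2 ENSDARG00000013443 read 33.2 and 37.1 FPKM against 34 and 34.7 FPKM. Its less abundant copy ENSDARG00000043465 was not steady, at 3.02 and 0.0315 FPKM against 4.55 and 1.99 FPKM, a span of 2.43 log2 units. ATP6V1D, the other rotor subunit, read 17.4 and 20.6 FPKM against 20.2 and 20.9 FPKM, beside the wider values of its partner ATP6V1F. Of the tested pump subunits, 6 of 21 spanned less than 0.5 log2 units over the 4 libraries, 4 in V1 and 2 in V0, where 6.98% of all tested genes did. None of the 15 tested proteases did (0). The median span over the 4 libraries was 0.75 log2 units in V1, 1.43 in V0 and 1.15 in the proteases, beside 1.39 over all tested genes.

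Of the 9 V0 subunits, 0 stood under an unadjusted genotype p of 0.05, where 6.8% of all tested genes did. ATP6V0B, a proteolipid subunit of the proton-carrying ring, was the most abundant pump gene. It read 72.5 and 89.9 FPKM in the receptor line and 163 and 89.9 FPKM in controls, so only wild-type clutch 1 stood apart (log2 change -0.58, SE 0.40, limma adjusted p = 0.743; -0.15 without it). The small subunit gene atp6v0e1 read 21.2 and 35.3 FPKM against 32.1 and 58.7 FPKM, below wild-type in each clutch with overlapping groups (log2 change -0.65, SE 0.47, adjusted p = 0.752; leaving out 1 library gave -1.07 to -0.22, the smallest without the clutch 2 control). ATP6V0D1, which links the ring to the rotor, read 28.7 and 29.5 FPKM against 61.3 and 24.7 FPKM. Its high value was again wild-type clutch 1, and its log2 change of -0.41 (SE 0.51, adjusted p = 0.872) was 0.23 without that library. ATP6V0C ENSDARG00000057853, the main ring subunit, stayed between 81.4 and 106 FPKM.

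The accessory proteins assist assembly and targeting of the pump. atp6ap1lb, a relative of the accessory gene atp6ap1, read 3.44 and 8.9 FPKM in the receptor line and 0.492 and 2.87 FPKM in controls. The groups did not overlap, and the log2 change was 1.46 (SE 0.79, limma adjusted p = 0.708; leaving out 1 library gave 0.78 to 2.15). Its sister atp6ap1la was low, at 1.81 and 1.68 FPKM against 1.09 and 1.19 FPKM (log2 change 0.36, SE 0.65, adjusted p = 0.922). ATP6AP2, the gene of the (pro)renin receptor, read 30.7 and 29.9 FPKM against 49.9 and 12.4 FPKM, the wild-type libraries enclosing the kdrl:cxcr1 libraries. Its log2 change of 0.26 (SE 0.67, adjusted p = 0.952) was -0.70 without wild-type clutch 2.

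Of the LAMP genes, LAMP2 was the most abundant, at 82.2 and 58.2 FPKM in the receptor line and 83.8 and 143 FPKM in controls. Clutch 1 libraries were close and clutch 2 libraries apart, as for CTSD (log2 change -0.65, SE 0.40, limma adjusted p = 0.728; leaving out 1 library gave -1.03 to -0.27, the smallest without the clutch 2 control). lamp1b read 10.1 and 3.22 FPKM against 8.46 and 8.31 FPKM, kdrl:cxcr1 clutch 2 being the low library (log2 change -0.45, SE 0.64, adjusted p = 0.887; 0.25 without it). lamp3 read 4.2 and 8.82 FPKM against 0 and 7.13 FPKM (log2 change 1.33, SE 1.1, adjusted p = 0.783). With the clutch 1 control left out, where it was listed at 0, the log2 change was -0.19. LAMP1 ranged from 14.9 to 33.7 FPKM with overlapping genotypes.

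By clutch, the second labelled factor, 0 of the 45 tested members passed limma's test, where 0.0169% of all tested genes did (3 of 17723). At an unadjusted p under 0.05 there were 4 members, 3 in the V0 sector and 1 accessory protein, where 9.2% of all tested genes stood under that limit. The 4 of 45 are close to that share. All 4 were lower in clutch 2, and each is the less abundant of 2 copies of a pump gene. Zebrafish carry paired copies of many genes from a genome duplication in the fish lineage. The accessory gene atp6ap1a read 10.1 and 8.08 FPKM in clutch 1 (kdrl:cxcr1, then wild-type) and 0.0705 and 0.453 FPKM in clutch 2. Its log2 difference was -3.01 (limma adjusted p = 0.383). ATP6V0A1 ENSDARG00000015174, a copy of the subunit that forms the proton path, read 9.18 and 7.05 FPKM in clutch 1 and 1.58 and 0.683 FPKM in clutch 2 (log2 difference -2.12, adjusted p = 0.408). The ring subunit copy ATP6V0C ENSDARG00000036577 read 17.1 and 22.9 FPKM, then 4.49 and 7.28 FPKM (log2 difference -1.63, adjusted p = 0.43). For ATP6V0A2 ENSDARG00000035538 the values were 2.66 and 2.65 FPKM, then 0.678 and 0.0113 FPKM (log2 difference -1.49, adjusted p = 0.48). Clutches did not overlap in any of these 4 genes, which were picked by their small clutch p. The fifth by p was lamp3, with a log2 difference of 1.97 (adjusted p = 0.662) that was 0.78 without the clutch 1 control, where lamp3 was listed at 0, and 3.16 without the receptor line's clutch 1 library.

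The more abundant copies of the same genes read otherwise. atp6ap1b read 24.2 and 28.9 FPKM in clutch 1 and 30.4 and 24.9 FPKM in clutch 2, and ATP6V0A1 ENSDARG00000020847 read 15.8 and 19.3 FPKM, then 17.7 and 20 FPKM. ATP6V0A2 ENSDARG00000035565 stood the other way, at 3.04 and 3.72 FPKM, then 10.3 and 6.84 FPKM. The share of the less abundant copy was lower in clutch 2 in these pairs. They were picked by the small clutch p of that copy, so a lower share was largely fixed in advance. Of ATP6V0A1 the share was 36.8% and 26.8% in clutch 1 and 8.21% and 3.3% in clutch 2. Of ATP6V0A2 it was 46.7% and 41.6%, then 6.2% and 0.165%. Of ATP6V0C it was 17.4% and 21.3%, then 4.59% and 6.45%. Of atp6ap1 it was 29.5% and 21.9%, then 0.232% and 1.79%. In these 4 pairs the largest share of the less abundant copy was 46.7%.

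Over the 12 pairs of copies among the members, which were drawn up after the values were seen, 7 had both clutch 2 shares below both clutch 1 shares, 1 had them above, and 4 overlapped. The 7 were those 4 pairs, picked by clutch p, with ATP6V1B2, LAMP1 and atp6ap1l. No such count was made over all pairs of copies in the genome, so it has no background share beside it. In atp6ap1l the copy with the lower mean, atp6ap1la, took 34.5% and 68.9% in clutch 1 and 15.9% and 29.4% in clutch 2, so it was the higher copy in the clutch 1 control. The 1 above was atp6v1e1, where atp6v1e1a took 19.2% and 23.3% in clutch 1 and 27.9% in both clutch 2 libraries. Copies were ranked by their mean over all 4 libraries, which include the clutch 2 values compared here. The copy with the lower mean was also the lower one in each library, except atp6ap1la in the clutch 1 control. Of the 12 less abundant copies, 7 were lower and 2 higher in both clutch 2 libraries. The 2 higher were atp6v1e1a and ctsbb, and ctsbb did not meet the filter for testing. Of the 12 more abundant copies, 1 was lower (ATP6V1C1 ENSDARG00000023967) and 3 higher. Over all tested genes 20.4% were lower in both clutch 2 libraries and 15.5% higher. Low genes were more often lower: among the 10416 tested genes with a mean under 10 FPKM the shares were 25.7% lower and 11.6% higher, and 9 of the 12 less abundant copies had a mean under 10 FPKM. By genotype, shares were apart in 2 of the 12 pairs, again without a background share over all pairs. The ATP6V1A ENSDARG00000076318 copy took 25.8% and 27.1% in the receptor line and 38.9% and 40% in controls, and the ATP6V1C1 ENSDARG00000035880 copy 28.6% and 20.4% against 15.8% and 12.7%. Reads shared between near-identical copies may be split between them, and no rule for that is stated.

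**Figure D4:**
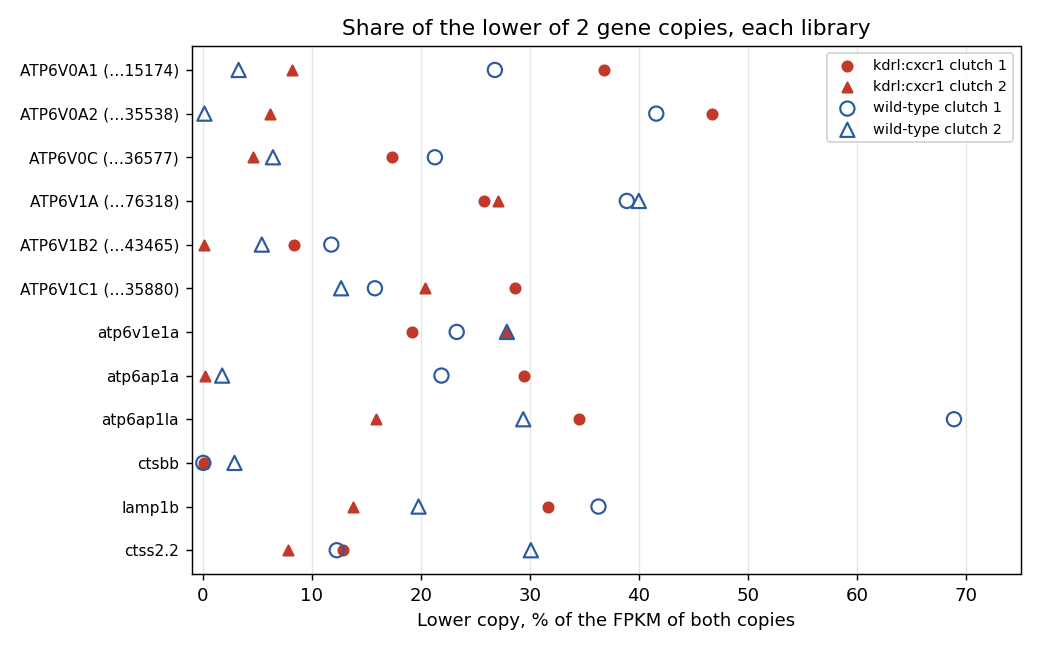
Share of the less abundant of 2 gene copies in the FPKM of both, in percent, for 12 pairs in each of the 4 libraries; symbols as in the plot of levels, with rows named by the less abundant copy. For the ATP6V0A1, ATP6V0A2, ATP6V0C, ATP6V1B2, atp6ap1a, atp6ap1la and lamp1b copies both triangles (clutch 2) lie left of both circles (clutch 1).

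Several lists of markers of other cells had negative clutch medians as well. Over the tested rows the median log2 difference was -0.89 for neuronal markers (4 of 4 below the median gene), -1.04 for epidermal markers (8 of 10 below) and -0.86 for red cell markers (7 of 8 below), while it was 0.67 for macrophage markers. The red cell gene hbae1.3 read 43.6 and 21.7 FPKM in clutch 1 and was listed at 0 in clutch 2. Of the neuronal markers 5 rows matched. The neuronal sum was 175 and 189 FPKM in clutch 1 (kdrl:cxcr1, then wild-type) and 113 and 52.7 in clutch 2, with gap43 listed at 0 in all 4 libraries. ELAVL3 read 92.4 and 115 FPKM, then 50.4 and 19.9 FPKM. The larger share of genes listed at 0 and the lower neuronal sum were seen in both clutch 2 libraries, as were the low pump copies. The epidermal sum was 1050 and 1250 FPKM in clutch 1 and 939 and 1310 FPKM in clutch 2, lower in the receptor line only. Much of it was krt8 and krt18a.1, both higher in clutch 2 than in clutch 1 of the receptor line. Both clutch 2 libraries lay below both clutch 1 libraries in 3 of 4 tested neuronal rows. This held for 3 of 10 epidermal and 2 of 8 red cell rows, beside 20.4% of all tested genes. The part of each in the pump values was not tested. The 10 tested endothelial markers had a median log2 difference of 0.57 between clutches, all 10 above the median gene (-0.06). Tested proteases had a median of 0.30, with 12 of 15 above the median gene, and pump subunits -0.17, with 9 of 21 above. Of the 15 tested proteases 5 were higher in both clutch 2 libraries (CTSC, ctsf, ctsla, CTSZ and LGMN) and 1 was lower (CTSO). Of the 21 tested pump subunits 8 were higher and 6 lower. The shares of all tested genes were 15.5% higher and 20.4% lower.

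The 6 members that were not tested were low or listed at 0. The cathepsin L genes ctslb and ctslb.4, the pump subunit ATP6V1C2 and LAMP5 were at 0 in all 4 libraries. ctslb is known as a gene of the hatching gland, the organ that dissolves the egg envelope, and the hatching enzyme genes he1.2 and he1.3 were listed at 0 as well. Of the other hatching gland markers, he1.1 read at most 0.729 FPKM, AGR2 at most 2.15 FPKM and klf17 2.22 to 8.44 FPKM. ctsll read 0.254 and 0.849 FPKM in the receptor line and was listed at 0 in wild-type. ctsbb read 0.0842 and 0.114 FPKM against 0.061 and 2.07 FPKM. Pump-rich ionocytes of the skin left little signal: of 5 matched marker rows, ca15a and foxi3b were listed at 0 in all 4 libraries and foxi3a read 2.26 and 1.64 FPKM in clutch 1 and 0 in clutch 2. Markers of lysosome-rich gut cells and kidney tubule were near 0 (CUBN at most 0.401 FPKM, amn at most 0.451 FPKM, FABP6 listed at 0), except the 2 dab2 rows, genes that endothelium also uses, at 45.3 to 165 FPKM.

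Of other lysosomal genes, 0 passed limma's test by genotype in each of 6 lists, where 0.0113% of all tested genes did (2 of 17723). Among 47 tested hydrolases other than cathepsins the median log2 change was 0.01 and 0 stood under an unadjusted p of 0.05. PSAP, the gene of the saposins that help degrade sphingolipids, read 130 and 241 FPKM in the receptor line and 90.5 and 111 FPKM in controls (log2 change 0.82, adjusted p = 0.699). Among 26 tested membrane proteins the median was 0.04, and 3 stood under an unadjusted p of 0.05, where 6.8% of all tested genes did. All tested genes had a median of 0.16. LAPTM4A read 33.5 and 39 FPKM against 16.8 and 15.6 FPKM (log2 change 1.11, adjusted p = 0.699). CD63, a tetraspanin of late endosomes, read 113 and 134 FPKM against 74 and 55 FPKM (log2 change 0.94, adjusted p = 0.699). The third, cd68 (1.63), is also on the macrophage list.

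Genes that deliver material to the lysosome or control it were read beside the median gene of all tested (0.16). The 19 tested sorting genes had a median of 0.30, with the adaptor GGA3 (12.6 and 19.8 FPKM against 4.81 and 6.21 FPKM, adjusted p = 0.699), NAGPA (log2 change 1.29) and GGA1 (0.85) first by p. Both libraries of kdrl:cxcr1 were above both of wild-type in 10 of the 19, beside 26% of all tested genes. The 16 tested regulators, the TFEB family and the mTOR docking complex, had a median of 0.21. The smallest p-values were those of RPTOR (log2 change 0.89), LAMTOR2 (1.18) and FNIP1 (0.84). Under an unadjusted p of 0.05 stood 0 of the 16, where 6.8% of all tested genes did. The cystatin gene cst3, whose product inhibits cysteine cathepsins, read 44.9 and 36.1 FPKM against 58.7 and 117 FPKM, below wild-type in both clutches like CTSH and CTSK (log2 change -1.02, SE 0.44, adjusted p = 0.699). The other 2 tested cystatins were cst14a.2 (-0.52) and cst14a.1 (0.44). The 8 tested assembly and regulatory factors of the pump, ncoa7a, ncoa7b and oxr1a among them, had a median of 0.80. VMA21 read 53.3 and 56.1 FPKM against 22 and 36.9 FPKM (log2 change 0.91, adjusted p = 0.699), WDR7 27.3 and 32 FPKM against 17.5 and 15.3 FPKM, and ncoa7b had a log2 change of 0.79. By clutch the assembly factor TMEM199 read 15.6 and 18.3 FPKM in clutch 1 and 2.61 and 0 FPKM in clutch 2, with a difference of -3.24 that did not pass (limma adjusted p = 0.407).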

How the data were processed

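The authors deposited 1 table of FPKM values with 1 column per library and 31951 Ensembl genes. Per the labels' protocols, libraries came from a SMARTer low-input RNA kit. The submitters' processing notes name cutadapt, TopHat2 2.0.11, Cufflinks 2.2.1 and build GRCz10. For annotation, filters, strand and scaling across libraries, the setting is not given in the sources used here. Cufflinks can list a gene at 0 when an estimate fails, so a 0 is not taken as absence.

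A table pairing Ensembl identifiers with symbols covered 26120 genes, and 6 symbols each name 2 members, given with their identifier. Many symbols are in capitals, in the human style. All 4 columns matched sample titles. Of 263 entries in the comparison and marker lists, matching by symbol without regard to case gave 215 rows. No sequences were used.

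limma 3.58.1 (R 4.3.3) was run with an intensity trend on log2(FPKM + 1), two-sided, over the 17723 genes that reached 1 FPKM in 2 or more libraries, adjusted by Benjamini-Hochberg with a threshold of 0.05. The added 1 makes fold changes of low genes too small. An exact permutation of 2 against 2 libraries cannot go below p = 0.333, so limma's p-values rest on its pooled spread (5.69 degrees of freedom, 3.69 of them from other genes). Genotype and clutch were fitted apart, without a block. By the labels, each clutch holds 1 library of each genotype, so clutch numbers pair the libraries, and deviations from the group means correlated at 0.116 within a clutch. Whether a clutch was 1 pool of embryos is not stated. The spread behind a genotype p-value is that between clutches within a genotype. For a clutch p-value it is that between genotypes within a clutch. Neither is a spread between replicates alike in both factors.

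Members, lists and tests were chosen with earlier results of these data known. Values in every library are given for the 3 members with the smallest genotype p and the most abundant member of each role, for the 5 with the smallest clutch p, and for copies listed at 0. In the comparison lists the genes with the 3 smallest p-values are named, apart from some that are not reported here. Other members and genes with values were named after these were seen. Alternatives were pseudocounts of 0.1 and 5, no filter, a minimum of 5 FPKM, median-of-ratios scaling, no trend, the other factor as a block, and leaving out each library.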

Additional observations from a re-analysis of the deposited data

How the results depend on the processing

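No member passed the test by genotype or by clutch under any alternative run, so both counts stayed at 0. With the replicate block (clutch in the genotype fit, genotype in the clutch fit) 0 members were called, 0 genes passed by genotype and 3 by clutch. For all genes, the genotype count of 2 was 0 with a pseudocount of 0.1, no filter, no trend or any library left out. The clutch count of 3 was 0 with either clutch 1 library left out, 11 with the receptor line's clutch 2 library left out and 15 with that of controls left out. It was 1 with a pseudocount of 0.1, no filter or no trend, and 2 after scaling. Median-of-ratios scaling put the median genotype change of all genes at -0.03 in place of 0.16, so list medians are read against it. Relative to all genes, the genotype median of proteases was -0.21 and -0.39 to -0.03 with 1 library left out, and that of pump subunits -0.13 and -0.24 to -0.01. The clutch medians were 0.36 (0.07 to 0.65) and -0.11 (-0.18 to 0.23). The median protease level minus the median pump level, 0.38 log2 units as a mean of 4 libraries, was 0.00 with no filter and -0.01 without wild-type clutch 2. That library read 1.53 where the others read -0.35 to 0.23. The SD of 0.81 between libraries includes it, so this SD cannot judge its removal. Of 250 values of 22 members under other settings, 244 kept their direction. Those include values with another filter, no trend or the block, which cannot change a fold change in this balanced design. Their direction was therefore fixed in advance. The 6 that turned did so with 1 library left out, with ranges of -0.70 to 1.22 (ATP6AP2), -1.05 to 0.23 (ATP6V0D1), -0.47 to 0.37 (CTSA), -0.04 to 0.85 (ctsla), -1.15 to 0.25 (lamp1b) and -0.19 to 2.84 (lamp3), and the cause was not tested. Depth is unknown, and values under about 1 FPKM are the least certain.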
